A study of Mus musculus with 12 samples.

Results

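The 9 genes described here code for fibroblast growth factors (FGFs), a protein that carries them, and their receptors. They were taken by gene symbol from deposited tables that each hold 23735 gene models, and each symbol stood on 1 row. The ligands were Fgf1, Fgf2, Fgf5, Fgf7 and Fgf18, the carrier was Fgfbp1, and the receptors were Fgfr1, Fgfr2 and Fgfr3. RNA was sequenced from hair follicle stem cells, which had been sorted by flow cytometry from mouse back skin, in 12 libraries of 7 groups. The design asks how cells without the transcription factor Foxc1 differ from control cells in the growth phase (anagen) and the second resting phase (second telogen).

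Anagen cells came from 2 FOXC1-Sox9CreER-heterozygous males (Het) and 2 FOXC1-Sox9CreER-iKO males (inducible knockout, iKO), all at postnatal day 30 on a Black Swiss and C57BL/6 mix. Second telogen cells of Black Swiss mice came from 2 wild-type animals (WT) and 2 FOXC1-K14Cre-cKO animals (conditional knockout, cKO), each group being made up of a day 42 male and a day 46 female. Another 2 libraries were of second telogen cells from FOXC1-Sox9CreER-iKO males of that Black Swiss and C57BL/6 mix, at day 60. Mice with Sox9CreER had received tamoxifen, which sends Cre to the nucleus, deletes Foxc1 and switches on a YFP reporter. Sox9CreER acts in Sox9-expressing cells, which include the stem cells of the follicle, while K14Cre is active in keratinocytes that express keratin 14. No tamoxifen-treated control in second telogen was analysed here. Shh-Het Agouti females were sampled in first telogen (1 library, about day 23) and in anagen substage II (1 library, about day 26), and the titles of both call them WT.

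FGFs are secreted ligands that bind receptor tyrosine kinases at the cell surface together with heparan sulphate. The receptors signal through Ras and the kinase ERK, and ERK induces both transcription factors and inhibitors of the same pathway. In the hair follicle, Fgf18 is known as a factor of the bulge, the stem cell niche, that prolongs telogen. Fgf5 is known for ending anagen, and animals without it grow long hair. Fgf7 is a ligand of the underlying dermal papilla that acts on epithelial Fgfr2.

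RefSeq upstream sequences (build GRCm38.p6, 250 bases that end at the start site) were examined for 7 of the 9 genes, in 8 windows. None was examined for Fgf1 and Fgfr1. The 3 members called between knockout and control in anagen, Fgf18, Fgfbp1 and Fgfr2, are shown 5′ to 3′ on the coding strand, with each CG dinucleotide in capitals.
Fgf18, minus strand, chr11:33147401-33147650: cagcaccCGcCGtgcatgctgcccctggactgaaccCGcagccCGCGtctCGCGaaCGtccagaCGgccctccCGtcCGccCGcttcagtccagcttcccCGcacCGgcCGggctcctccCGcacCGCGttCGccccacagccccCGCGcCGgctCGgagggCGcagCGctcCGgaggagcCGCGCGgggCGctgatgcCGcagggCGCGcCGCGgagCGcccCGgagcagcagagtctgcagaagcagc
Fgfbp1, minus strand, chr5:43981800-43982049: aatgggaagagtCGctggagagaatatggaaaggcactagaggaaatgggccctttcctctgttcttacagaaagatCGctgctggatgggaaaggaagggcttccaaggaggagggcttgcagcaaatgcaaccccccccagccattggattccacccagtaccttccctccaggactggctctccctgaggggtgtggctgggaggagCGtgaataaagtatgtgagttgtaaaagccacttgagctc
Fgfr2, minus strand, chr7:130266809-130267058: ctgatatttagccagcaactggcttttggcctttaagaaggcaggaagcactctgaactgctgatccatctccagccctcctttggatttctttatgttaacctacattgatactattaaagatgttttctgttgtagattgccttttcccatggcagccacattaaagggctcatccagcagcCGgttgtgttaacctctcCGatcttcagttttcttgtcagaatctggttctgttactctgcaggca
The Fgf18 window holds 37 CG dinucleotides and 77.2% G and C, against medians of 6 and 52.4% over 32851 RefSeq windows of the same length, and its CG count ranks at the 97.8 percentile. The Fgfbp1 window holds 3 CG dinucleotides and 53.6% G and C, and the Fgfr2 window holds 2 and 44.0%. The forkhead core TGTTTA, searched on both strands, occurs in none of the 8 member windows and in 12.03% of all windows. The longer form TGTTTAC, which contains that core, occurs in 3.17% of all windows. The search describes these letters in these windows only.

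In build mm9, Fgf18 (XLOC_003401) spans chr11:33016978-33047400, Fgfbp1 (XLOC_016206) spans chr5:44370097-44373038 and Fgfr2 (XLOC_020011) spans chr7:137305965-137410322. Fgfr3 (XLOC_015497) lies at chr5:34064373-34079717 and Fgfr1 (XLOC_020255) at chr8:26629231-26686190. Fgf2 (XLOC_012926) lies at chr3:37247575-37303752, Fgf5 (XLOC_015693) at chr5:98683203-98706052 and Fgf7 (XLOC_011484) at chr2:125684845-125977740. Fgf1 (XLOC_009914) lies on chromosome 18. The deposited models of Fgf1, Fgf7 and Fgfr1 overlap others in the same table: Gm5820 with Fgf1, Fam227b and Galk2 with Fgf7, and LOC102633315 with Fgfr1. No source used here states whether counting used strand, so reads of those overlaps cannot be assigned with certainty. Values are per gene, so the receptor isoforms that bind different ligands are not told apart.

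Each level below is in FPKM, the authors' fragment count scaled for transcript length and library size. The tables pool the libraries of a group, so an FPKM value has no spread here. Depth is unknown. A gene is called where the authors' deposited q-value is below 0.05, and the words rose and fell are kept for called genes. Each log2 fold is the authors' own. Its standard error (SE), derived from the deposited test statistic, is approximate.

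The targeted gene went with the labels. Foxc1, at chr13:31898515-31902504 in mm9, had 22.5 FPKM in anagen Het and 1.32 in anagen iKO cells of the joint table. Second telogen cells had 27.5 FPKM in WT, 1.66 in cKO and 3.17 in iKO. Among stem cell markers, Cd34 lay between 129 and 883 FPKM over the 7 groups, Lgr5 between 54.2 and 102 and Lhx2 between 149 and 257. Krt15 was listed at 0 in 3 groups and Krt5 in 5 groups, where their rows carry the authors' mark for loci too deeply covered to be quantified, so these zeros are not absences. The first telogen library stood apart: its summed FPKM was 1195200, of which Mir6236 alone took 464468, against 603116 to 759506 in the other groups. Its 15 fibroblast and dermal papilla markers summed to 2263 FPKM, and those of the anagen II library to 1132, against 46.5 to 257 in the 5 groups with 2 libraries. Pdgfra, a defining fibroblast receptor, was at 174 FPKM in first telogen and 50.3 in anagen II, and below 1 FPKM in all 5 other groups.

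Fgf18 had 16.6 FPKM in first telogen, 6.93 in anagen II, 13.1 in anagen Het, 6.11 in anagen iKO, 45.6 in telogen WT, 17.9 in telogen cKO and 7.61 in telogen iKO cells. Telogen WT cells stood highest, above every knockout group and the anagen controls. Every Foxc1 knockout group was below the Het or WT cells of its own stage. Both telogen knockouts were set against the same WT cells, which are not a matched control for the iKO cells. Fgf1, a ligand without a classical signal peptide that binds all FGF receptors, had 35.0, 2.96, 6.05, 4.76, 25.3, 11.2 and 29.9 FPKM in the same order of groups. It was high in first telogen, telogen WT and telogen iKO cells, low in all 3 anagen groups, and between them in telogen cKO cells.

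Fgf5 had 18.7 FPKM in anagen II and no more than 0.70 FPKM in any other group, with 0.60 in anagen Het and 0.09 in telogen WT. Fgf2, the basic FGF, stayed under 1 FPKM in all 7 groups, with a highest value of 0.61 in anagen II, and was listed at 0 in telogen WT. Fgf7 reached 1.51 FPKM in first telogen and 0.98 in anagen II, and lay between 0.14 and 0.60 in the 5 groups with 2 libraries. The highest Fgf7 values were thus in the libraries with the highest fibroblast marker sums. Whether fibroblast RNA contributed to them was not tested.

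Fgfbp1 codes for a secreted carrier that frees FGFs from heparan sulphate. Its level was 50.7 FPKM in first telogen, 107 in anagen II, 22.3 in anagen Het, 43.5 in anagen iKO, 49.9 in telogen WT, 83.6 in telogen cKO and 77.5 in telogen iKO cells. Each knockout group was above the Het or WT cells of its stage, and anagen Het cells stood lowest of all.

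The 3 receptor genes each had at least 36.1 FPKM in every group. Fgfr1 had 105, 70.9, 70.4, 64.4, 157, 127 and 142 FPKM in first telogen, anagen II, anagen Het, anagen iKO, telogen WT, telogen cKO and telogen iKO cells. All 4 telogen groups were above all 3 anagen groups. Fgfr2 had 57.3, 50.3, 83.3, 36.1, 58.4, 37.6 and 51.2 FPKM in that order, highest in anagen Het and lowest in anagen iKO cells. Fgfr3 had 74.2, 202, 80.1, 74.5, 89.8, 53.4 and 57.1 FPKM, and anagen II stood 2.25-fold above the next group, telogen WT.

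**Figure D1:**
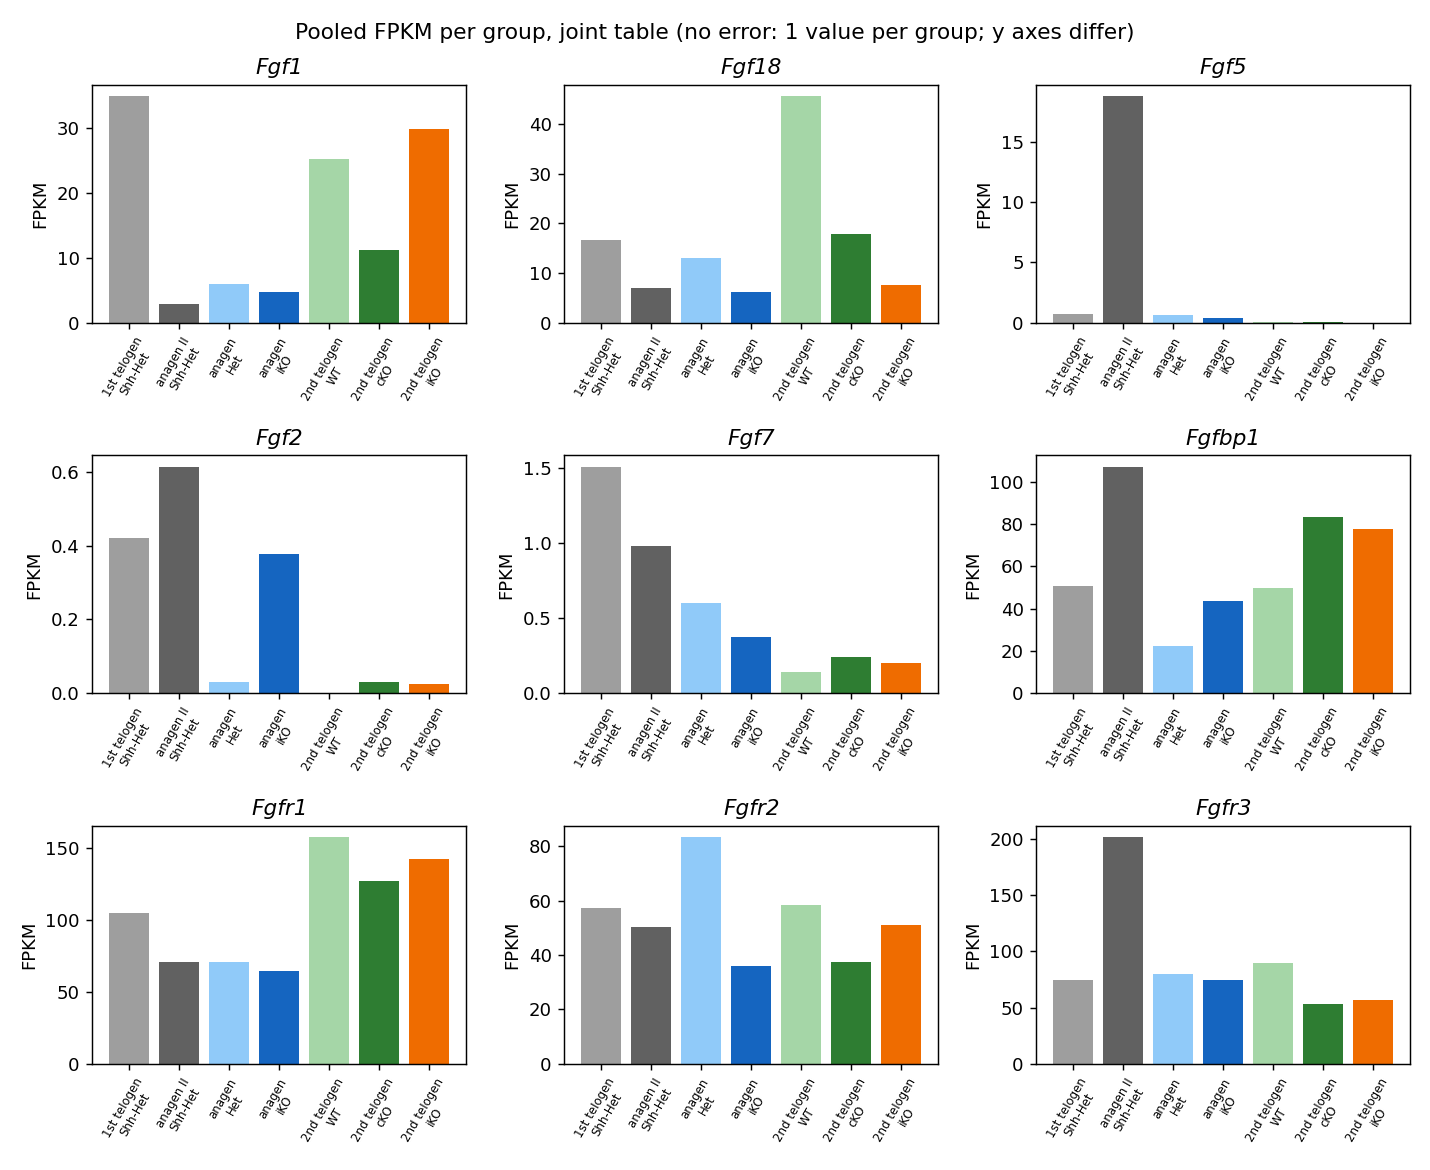
Pooled FPKM (y axis, scale differs between panels) of the 9 genes in the 7 groups (x axis), 1 bar per group without error. Fgf18 is highest in telogen WT at 45.6, Fgf5 in anagen II at 18.7, and Fgfr2 in anagen Het at 83.3.

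Neighbours in the order of levels often could not be separated. For Fgf18, WT over cKO cells in telogen differed by a log2 fold of 1.35 (q = 0.000444 in the authors' deposited table), and anagen Het over telogen iKO cells by 0.78 (q = 0.00859). For Fgf1, telogen iKO and WT cells, next to each other, differed by 0.24 (q = 0.456), whereas telogen cKO lay above anagen Het cells by 0.89 (q = 0.00121 in the authors' deposited table). For Fgfbp1, telogen cKO and iKO cells differed by 0.11 (q = 0.742), and telogen WT and anagen iKO cells by 0.20 (q = 0.517). For Fgfr1, the 3 second telogen groups were neighbours with log2 folds of 0.15 and 0.17 (q = 0.712 and 0.657). For Fgfr2, anagen Het lay above telogen WT by 0.51 (q = 0.0547), and the lowest groups, telogen cKO and anagen iKO, differed by 0.06 (q = 0.877). For Fgfr3, telogen WT and anagen Het cells differed by 0.16 (q = 0.626) in the authors' deposited table. Steps that involve either Shh-Het library rest on 1 library and carry no test.

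In anagen, loss of Foxc1 went with less Fgf18 and Fgfr2 RNA and more Fgfbp1 RNA. In this table of 2 groups Fgf18 was at 13.8 FPKM in Het and 6.47 in iKO cells, and fell 2.14-fold (log2 fold -1.10, SE 0.34, q = 0.00106 in the authors' deposited table). Fgfr2, the receptor for Fgf7 among others, went from 88.3 to 38.3 FPKM and fell 2.31-fold (log2 fold -1.21, SE 0.26, the same q). Fgfbp1 went from 23.7 to 46.1 FPKM and rose 1.95-fold (log2 fold 0.96, SE 0.28, again at that q). Since cells were measured in bulk, fewer cells of a kind and less RNA per cell cannot be told apart here or in any comparison below.

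The other 6 genes were not called in anagen. Fgf1 had 6.41 FPKM in Het and 5.04 in iKO cells, with a log2 fold of -0.35 and a 95% interval from -0.91 to 0.22. Fgfr1 had 74.6 and 68.2 FPKM (interval -0.61 to 0.35) and Fgfr3 had 84.9 and 79.0 FPKM (interval -0.62 to 0.41). Of the ligands at low level, Fgf7 had 0.64 and 0.40 FPKM, Fgf5 had 0.64 and 0.46, and Fgf2 had 0.03 and 0.40 with a q of 0.578 in the authors' deposited table. In all, 3 of 9 members were called, 1 higher and 2 lower, against a background of 10.3% of 13716 genes (5.18% higher, 5.08% lower).

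Markers of other cells also differed between both anagen groups. Of 11 tested hair matrix, shaft and root sheath markers 5 fell and none rose, and their summed level was 319 FPKM in Het and 254 in iKO cells. Of 13 tested fibroblast and dermal papilla markers 3 fell and none rose, with sums of 123 and 71.1 FPKM, and Pdgfra was below 1 FPKM in both. Of 7 suprabasal epidermis markers 2 rose, with sums of 1388 and 1681 FPKM. Of 12 tested bulge stem cell markers 3 fell and none rose: Cd34 from 432 to 244 FPKM (log2 fold -0.83), Krt24 (-0.73) and Nfatc1 (-0.57). The melanocyte regulator Mitf fell from 7.21 to 2.15 FPKM (log2 fold -1.74), as 1 of 8 melanocyte markers, and 2 of 6 tested endothelial and pericyte markers fell. Of 5 tested immune markers 1 rose. The part of these markers in the values of the FGF genes was not tested.

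In second telogen, cKO cells had less Fgf18, Fgf1 and Fgfr3 RNA and more Fgfbp1 RNA than WT cells. Fgf18 went from 43.9 to 17.2 FPKM and fell 2.54-fold (log2 fold -1.35, SE 0.36, q = 0.00159 in the authors' deposited table). Fgf1 went from 24.5 to 10.7 FPKM and fell 2.28-fold (log2 fold -1.19, SE 0.36, the same q). Fgfbp1 went from 48.0 to 80.2 FPKM and rose 1.67-fold (log2 fold 0.74, SE 0.34, q = 0.0341). Fgfr3 went from 86.4 to 51.3 FPKM, a fall of 1.68-fold whose q of 0.0494 in the authors' deposited table lay just inside the threshold (log2 fold -0.75, SE 0.36). Both Fgfbp1 and Fgfr3 lost their calls where a normal p was taken from the deposited statistic. Both kept them in the joint table (q = 0.00121 each in the authors' deposited table).

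The level of Fgfr2 was 56.2 FPKM in WT cells against 36.1 in cKO cells, with no call in this table (log2 fold -0.64, SE 0.35, q = 0.124 in the authors' deposited table). The same groups in the joint table, where q was adjusted over 21 comparisons together, gave a call for Fgfr2 (log2 fold -0.63, SE 0.29, q = 0.00980). The unadjusted p of the authors' Cuffdiff test differed too, at 0.0017 there against 0.01085 in the 2-group table. With the p of the joint table adjusted within this comparison alone, Fgfr2 also passed (0.0215). That table called 12.2% of 13741 genes for these groups, 6.44% higher and 5.76% lower. Fgfr1 had 151 and 122 FPKM, with an interval of the log2 fold from -1.09 to 0.46. Fgf2, Fgf5 and Fgf7, at most 0.23 FPKM in both groups, were not tested by the authors. Of the 6 members tested, 4 were called, 1 higher and 3 lower, against a background of 6.62% of 13551 genes (3.75% higher, 2.87% lower).

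Markers moved in this comparison too. Of 7 tested fibroblast and dermal papilla markers 2 rose, and their summed level in the joint table was 46.5 FPKM in WT and 257 in cKO cells. Of the 257 FPKM, 170 came from Wif1, a secreted Wnt inhibitor, and 62.9 from Col1a1, while Pdgfra was below 1 FPKM in both groups. Suprabasal markers summed to 5393 and 6914 FPKM, with none of 7 called by the authors' Cuffdiff q and 1 at an unadjusted p under 0.05. Of 9 tested hair matrix, shaft and root sheath markers 2 rose and 1 fell. By the authors' Cuffdiff q none of 12 tested bulge stem cell markers was called. Of these, 4 had an unadjusted p under 0.05, all lower in cKO cells. Cd34 had the lowest p, at 848 FPKM in WT and 385 in cKO cells (log2 fold -1.14, q = 0.120 in the authors' deposited table). The endothelial and pericyte markers summed to 1.15 and 0.81 FPKM, with none of 8 at 1 FPKM. Of 6 tested melanocyte markers Mitf fell (log2 fold -0.92) and none rose, with sums of 48.5 FPKM in WT and 32.2 in cKO cells. Of 4 tested immune markers Cd68 fell (-1.60) and none rose, while the immune sums were 74.6 FPKM in WT and 79.8 in cKO cells. Their part in the FGF results was not tested.

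Telogen iKO cells, from males, could be compared only with WT cells of another strain and age and of both sexes. Those WT cells had no Sox9CreER and no tamoxifen, and the same WT libraries served the cKO comparison. In the joint table Fgf18 was at 45.6 FPKM in WT and 7.61 in iKO cells, and fell 5.99-fold (log2 fold -2.58, SE 0.33, q = 0.000444 in the authors' deposited table). Fgfbp1 rose 1.55-fold from 49.9 to 77.5 FPKM (log2 fold 0.63, SE 0.28, q = 0.00934). Fgfr3 fell 1.57-fold from 89.8 to 57.1 FPKM (log2 fold -0.65, SE 0.29, q = 0.00758). The calls of Fgfbp1 and Fgfr3 were lost where a normal p was taken from the statistic and folds were centred.

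Fgf1 was at 25.3 FPKM in WT and 29.9 in telogen iKO cells, a log2 fold of 0.24 with an interval from -0.35 to 0.83. Fgfr1 (157 and 142 FPKM) and Fgfr2 (58.4 and 51.2 FPKM) were not called either, with intervals from -0.76 to 0.47 and from -0.76 to 0.38. Of 6 members tested, 3 were called, 1 higher and 2 lower, where 12.9% of 13714 genes were called, 7.01% higher and 5.88% lower.

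Between telogen WT and iKO cells markers differed as well. Of 9 tested fibroblast and dermal papilla markers 2 rose, Crabp1 (log2 fold 2.18) and Wif1 (1.28), and 2 fell, Col1a1 (-1.18) and Col1a2 (-0.61), with sums of 46.5 FPKM in WT and 72.8 in iKO cells. Of 7 suprabasal markers 2 fell, the cornified envelope gene Lor from 130 to 28.9 FPKM (log2 fold -2.16) and Sbsn (-0.97), with sums of 5393 and 5157 FPKM. Of 12 tested bulge markers Krt24 rose (log2 fold 1.11) and Tcf3 fell (-0.55), and of 8 melanocyte markers 2 rose and Mitf fell (-1.16). Their part in the FGF values was not tested.

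**Figure D2:**
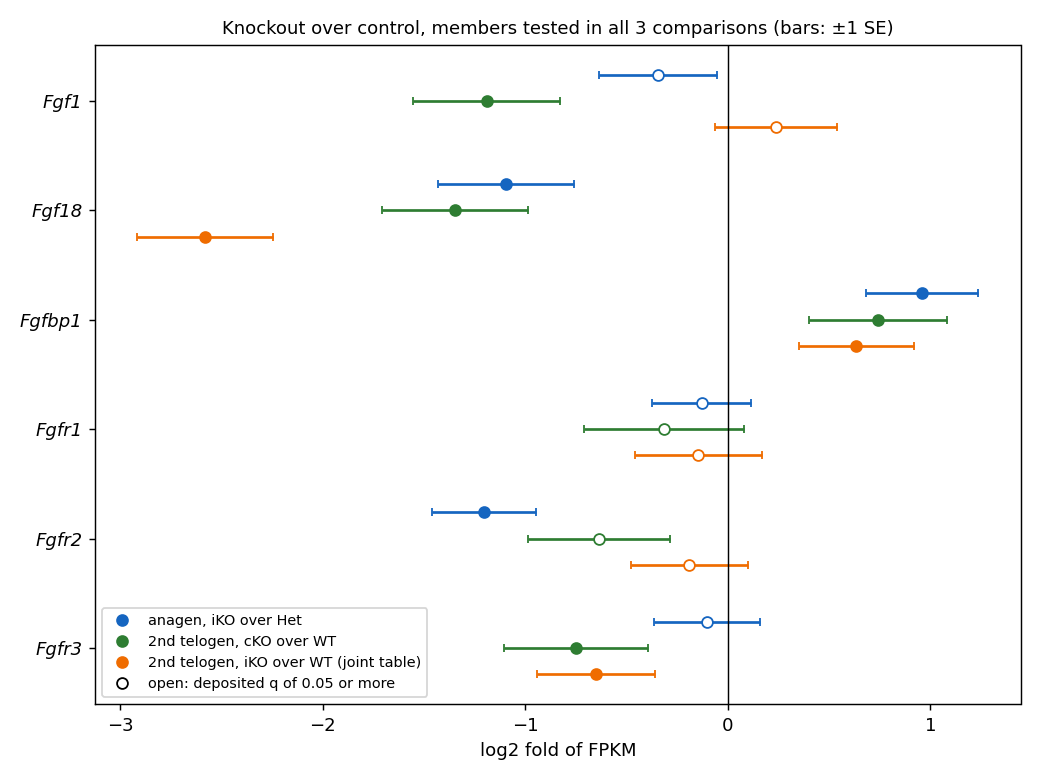
Log2 fold of FPKM, knockout over anagen Het or telogen WT cells (x axis), for the 6 genes tested in all 3 comparisons. Bars are 1 SE, and points are open where the deposited q is 0.05 or more. Both telogen comparisons share the WT cells, which differ from the iKO cells in strain, age, sex and tamoxifen. Fgf18 lies at -1.10, -1.35 and -2.58, and Fgfbp1 at 0.96, 0.74 and 0.63.

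Direct comparison of both telogen knockouts separated the ligands. In the joint table Fgf1 was 2.67-fold higher in iKO (29.9 FPKM) than in cKO cells (11.2 FPKM), with a log2 fold of 1.42 (SE 0.28). Fgf18 was 2.36-fold lower in iKO (7.61 FPKM) than in cKO cells (17.9 FPKM), with a log2 fold of -1.24 (SE 0.35). Both had q = 0.000444 in the authors' deposited table. Fgfbp1 (log2 fold -0.11, interval -0.66 to 0.45), Fgfr1 (0.17, interval -0.44 to 0.77), Fgfr2 (0.44, interval -0.11 to 1.00) and Fgfr3 (0.10, interval -0.46 to 0.66) were not called. That is 2 of 6 tested members, 1 in each direction, where 14.9% of 13711 genes were called, 7.53% higher and 7.35% lower. Driver, strain, age, sex and tamoxifen differ between these groups and cannot be told apart. Foxc1 itself was 1.91-fold higher in iKO than in cKO cells, from 1.66 to 3.17 FPKM. Among markers, Col1a1 was at 62.9 FPKM in cKO and 4.45 in iKO cells (log2 fold -3.82), Wif1 at 170 and 37.2 (-2.19) and Lor at 135 and 28.9 (-2.22). Of 5 tested immune markers 4 were higher in iKO cells, with sums of 79.8 FPKM in cKO and 98.6 in iKO cells. Their part in the FGF differences was not tested.

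A test of the difference between the telogen cKO and anagen iKO effects called none of the 6 members tested at both stages, where 0.99% of 13033 genes were called. All 6 had an adjusted p of 1.00 (z test of both log2 folds, two-sided, Benjamini-Hochberg), and none had an unadjusted p under 0.05. Fgf1 differed most, with a telogen minus anagen log2 fold of -0.85 (95% interval -1.76 to 0.07). The intervals ran from -1.22 to 0.71 for Fgf18, from -1.08 to 0.64 for Fgfbp1, from -1.10 to 0.73 for Fgfr1, from -0.29 to 1.42 for Fgfr2 and from -1.51 to 0.22 for Fgfr3. Differences of more than 1 log2 unit thus remained possible for every member in at least 1 direction. With the inducible knockout at both stages, a choice made after seeing the data, the Fgf1 difference was 0.58 in place of -0.85, and no member passed (lowest adjusted p 0.124, for Fgf18 at -1.49, against 1.62% of 13016 genes called).

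Stage was described in iKO cells, which share driver, strain, sex and tamoxifen but differ in age. They also differ in Foxc1, which was 2.40-fold higher in telogen iKO (3.17 FPKM) than in anagen iKO cells (1.32 FPKM; q = 0.00156 in the authors' deposited table). From anagen to second telogen Fgf1 rose 6.28-fold, from 4.76 to 29.9 FPKM (log2 fold 2.65, SE 0.30). Fgfr1 rose 2.21-fold from 64.4 to 142 FPKM (log2 fold 1.14, SE 0.30), and Fgfbp1 rose 1.78-fold from 43.5 to 77.5 FPKM (log2 fold 0.83, SE 0.29). Each had q = 0.000444 in the authors' deposited table. Fgf18 had 6.11 and 7.61 FPKM and was not called, with an interval of the log2 fold from -0.44 to 1.07. Fgfr2 had 36.1 and 51.2 FPKM and missed the threshold (q = 0.0530), and with p adjusted within this comparison it passed (0.0405). Fgfr3 had 74.5 and 57.1 FPKM (q = 0.168 in the authors' deposited table). Fgf5 and Fgf7, at most 0.43 FPKM in both groups, were tested and not called. Of 8 members tested 3 were called, all higher in telogen, where 33.2% of 13787 genes were called, 17.6% higher and 15.5% lower.

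Among controls the stages also differed in strain, genotype, age, sex and tamoxifen, which cannot be told apart. From anagen Het to telogen WT cells Fgf1 rose 4.19-fold (log2 fold 2.07, SE 0.32), Fgf18 rose 3.49-fold (1.80, SE 0.32), Fgfbp1 2.24-fold (1.16, SE 0.32) and Fgfr1 2.23-fold (1.16, SE 0.30). Fgf5 fell 6.43-fold, from 0.60 to 0.09 FPKM, both below 1 FPKM (log2 fold -2.69, SE 0.91, q = 0.00653 in the authors' deposited table). Fgfr2 (log2 fold -0.51, q = 0.0547) and Fgfr3 (0.16, q = 0.626) were not called, nor was Fgf7 (0.60 and 0.14 FPKM). In all, 5 of 8 tested members were called, 4 higher and 1 lower, where 25.4% of 13932 genes were called, 13.5% higher and 11.9% lower.

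Fgf18 thus had a log2 fold of 1.80 between stages in controls and 0.32 in iKO cells. The z test of that difference, which equals the inducible knockout difference above, gave an unadjusted p of 0.00294 and an adjusted p of 0.124. The difference, iKO minus control, was -1.49 with an interval from -2.47 to -0.51. Fgfr2 had -0.51 in controls and 0.50 in iKO cells, a difference of 1.02 with an adjusted p of 0.359. By the same z test its unadjusted p was 0.0141, with an interval from 0.21 to 1.83. Neither passed over all genes. Hair matrix, shaft and root sheath markers also differed by stage, with sums of 319 (Het) and 254 FPKM (iKO) in anagen and 70.9 (WT) and 77.5 FPKM (iKO) in telogen. Suprabasal marker sums were 1388 and 1681 FPKM in those anagen groups and 5393 and 5157 in telogen. Their part in the stage values was not tested.

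**Figure D3:**
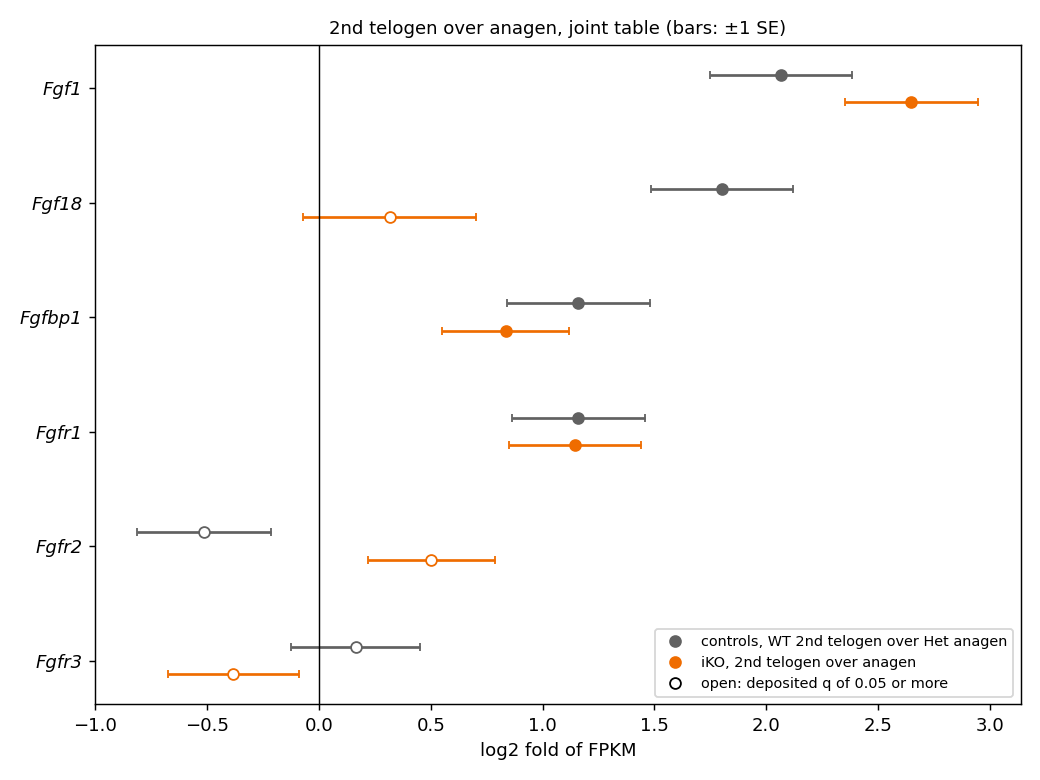
Log2 fold of FPKM, second telogen over anagen (x axis), for 6 genes in controls (grey) and iKO cells (orange), with bars of 1 SE and open points where the deposited q is 0.05 or more. Fgf1 lies at 2.07 and 2.65, while Fgf18 lies at 1.80 in controls and 0.32 in iKO cells.

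The receptor genes took different shares of their summed FPKM. The sum of Fgfr1, Fgfr2 and Fgfr3 ran from 175 FPKM in anagen iKO to 323 in anagen II cells. In second telogen Fgfr1 held 51.5% in WT, 58.2% in cKO and 56.8% in iKO cells. In anagen Het cells the shares lay close together, at 30.1% for Fgfr1, 35.6% for Fgfr2 and 34.3% for Fgfr3. In anagen iKO cells Fgfr2 held 20.6% and Fgfr3 42.6%. In anagen II Fgfr3 alone held 62.4%, and in first telogen Fgfr1 led with 44.4%. FPKM is scaled per length, so these shares compare levels between genes, but they carry no test.

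**Figure D4:**
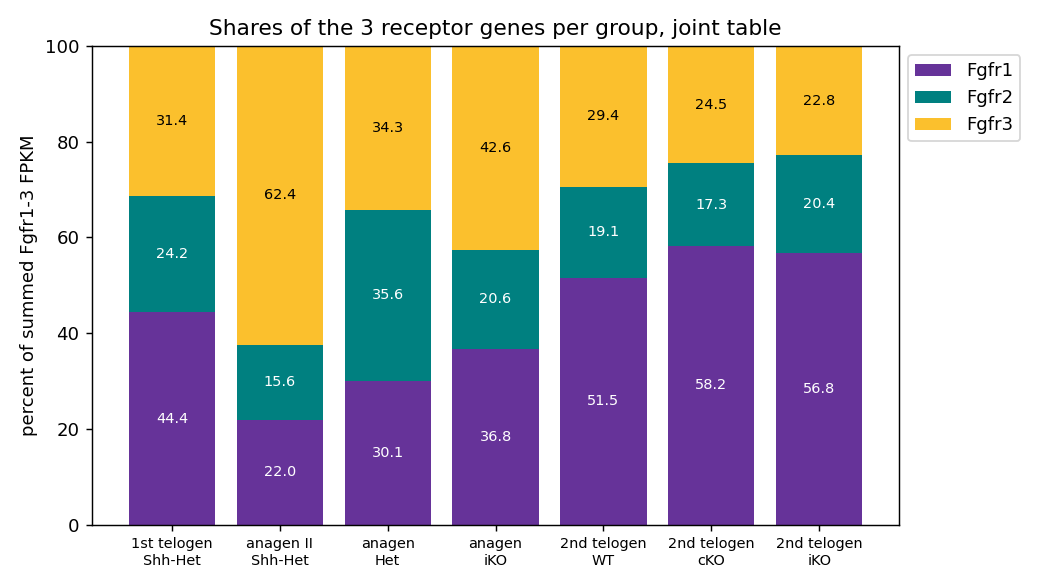
Percent of the summed FPKM of Fgfr1, Fgfr2 and Fgfr3 (y axis) in each of the 7 groups (x axis), from pooled values without error. Fgfr2 holds 35.6% in anagen Het and 20.6% in anagen iKO cells, and Fgfr3 holds 62.4% in anagen II.

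Between first telogen and anagen II, with 1 library each and no replicate check, Fgf5 went from 0.70 to 18.7 FPKM and was 26.8-fold higher in anagen II. Fgf1 went the other way, from 35.0 to 2.96 FPKM, 11.8-fold lower. Fgfr3 was 2.72-fold higher (74.2 to 202 FPKM) and Fgfbp1 2.11-fold higher (50.7 to 107 FPKM), while Fgf18 was 2.39-fold lower (16.6 to 6.93 FPKM). Fgfr1 (105 and 70.9 FPKM), Fgfr2 (57.3 and 50.3 FPKM) and Fgf7 (1.51 and 0.98 FPKM) stayed within 2-fold. Of 8 members with at least 1 FPKM in either library, 5 were past 2-fold, 3 higher and 2 lower in anagen II, where 30.6% of 13601 such genes were, 10.4% higher and 20.1% lower. The median log2 ratio of those genes, with a pseudocount of 1 FPKM, was -0.12. The first telogen library also had 262 FPKM of summed immune markers against 27.2 in anagen II, and 55.5 against 12.3 FPKM of endothelial and pericyte markers. What these other cells contributed to the FGF values was not tested.

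Genes with the most similar levels across groups were found by Pearson r of log2(FPKM + 1) over the 7 groups, among 3088 genes with at least 5 FPKM in 1 group and an SD of at least 0.5. For Fgf18 they were Igdcc4 (r = 0.987), Trim25 (0.941) and Sdk2 (0.925), and Igdcc4 was the single gene at 0.95 or above. Igdcc4 had 27.3 FPKM in telogen WT, 10.6 in telogen cKO and 6.10 in telogen iKO cells. For Fgfr2 they were Atp2a3 (0.928), Camk4 (0.872) and Igfbp3 (0.861), with none at 0.95. For Fgfbp1 they were Axl (0.922), Sdr16c5 (0.915) and Atp1b1 (0.909), again with none at 0.95.

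For Fgf1 the nearest genes were 1700019D03Rik (0.995), Id1 (0.993) and Ovol2 (0.988), with 59 genes at 0.95 or above. For Fgfr1 they were Il34 (0.997), Socs3 (0.991) and Dixdc1 (0.989), with 55 such genes. For Fgf5 they were Slc7a11 (0.998), Gsr (0.997) and Dio3 (0.996), with 51 such genes. For Fgfr3 they were Shisa4, Stbd1 and Cntfr (0.974 each), with 9 such genes. Fgf5, Fgfr3 and these neighbours were all highest in anagen II, which is 1 library. Without the Shh-Het libraries, over 5 groups, r was 0.987, 0.946 and 0.910 for Fgf5 and 0.843, 0.867 and 0.968 for Fgfr3, in that order of genes. In those 5 groups Fgf5 had at most 0.60 FPKM, so its r there rests on very low values. Among the members, Fgf5 and Fgfr3 had r = 0.93 over 7 groups and 0.54 over the 5 groups without the Shh-Het libraries. Fgf1 and Fgfr1 had 0.83 and 0.94. Points share stage, strain and scaling, so these values describe the groups and carry no p.

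The wider pathway was followed in 6 lists of 88 measured genes. In anagen 69 were tested, of which 6 rose and 4 fell, where 5.18% of all tested genes rose and 5.08% fell. Their median log2((FPKM + 1) ratio) was -0.04, against -0.02 over all tested genes. The transcription factors and other targets induced through ERK held 3 of the genes that rose: Etv4 from 4.86 to 17.2 FPKM (log2 fold 1.82, SE 0.29), Etv5 from 4.95 to 10.8 (1.12, SE 0.27) and the cyclin gene Ccnd1 from 59.3 to 105.6 (0.83, SE 0.24), each with q = 0.00106 in the authors' deposited table. Etv4 and Etv5 code for ETS factors known to be induced by FGF, and the other 6 of 9 tested targets were not called. Of 11 feedback inhibitors, Dusp6, an ERK phosphatase, rose from 13.8 to 41.2 FPKM (log2 fold 1.58, SE 0.24, the same q) and none fell.

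In the same anagen comparison 1 of 6 other receptors and co-receptors rose. It was Flrt3, a membrane protein that can bind FGF receptors, at 49.1 FPKM in Het and 107 in iKO cells (log2 fold 1.13, SE 0.26). Of 21 heparan sulphate genes 3 fell, the glypicans Gpc2 (log2 fold -0.93) and Gpc6 (-0.85) and the sulphatase Sulf2 (-0.80), and Gpc4 rose (0.50, q = 0.0493 in the authors' deposited table). Of 19 relay genes the adaptor Frs3 fell (log2 fold -1.04, q = 0.0132 in the authors' deposited table). By the authors' Cuffdiff q none of the 3 tested other ligands was called, and 0 of them had an unadjusted p under 0.05. Fgf10, the other main ligand of epithelial Fgfr2, had 0.19 FPKM in Het and 0.12 in iKO cells in the joint table.

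In second telogen 67 of the 88 genes were tested between cKO and WT cells, of which 3 rose and 5 fell, where 3.75% of all tested genes rose and 2.87% fell. Their median was -0.08, against 0.00 over all tested genes. Dusp6 fell from 70.3 to 29.9 FPKM (log2 fold -1.23, SE 0.32, q = 0.00159 in the authors' deposited table), and Dusp5, another ERK phosphatase, fell from 8.31 to 3.62 (log2 fold -1.20, q = 0.0413). They were 2 of 11 feedback inhibitors. Of 9 induced targets 2 fell, the immediate early gene Ier2 from 562 to 195 FPKM (log2 fold -1.52) and Myc from 95.1 to 47.0 (-1.02). Ccnd1 rose from 30.9 to 78.2 FPKM (log2 fold 1.34) and Phlda1 from 30.3 to 50.4 (0.73), and neither of these codes for a transcription factor. The median log2((FPKM + 1) ratio) of those 9 was -1.001. The immediate early genes Fos, at 3872 and 1744 FPKM, and Egr1, at 1381 and 510 FPKM, were not called (q = 0.692 and 0.195 in the authors' deposited table).

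Also in second telogen, Flrt2, a relative of Flrt3, fell from 29.2 to 14.7 FPKM (log2 fold -0.99), as 1 of 6 other receptors and co-receptors. Of 2 tested other ligands, Fgf11 rose from 3.57 to 6.78 FPKM (log2 fold 0.92, q = 0.0381 in the authors' deposited table). It codes for an intracellular FGF relative that is not known as a secreted ligand. By the authors' Cuffdiff q none of 20 heparan sulphate genes and none of 19 relay genes was called, and 4 and 3 of them had an unadjusted p under 0.05 in the authors' deposited table.

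**Figure D5:**
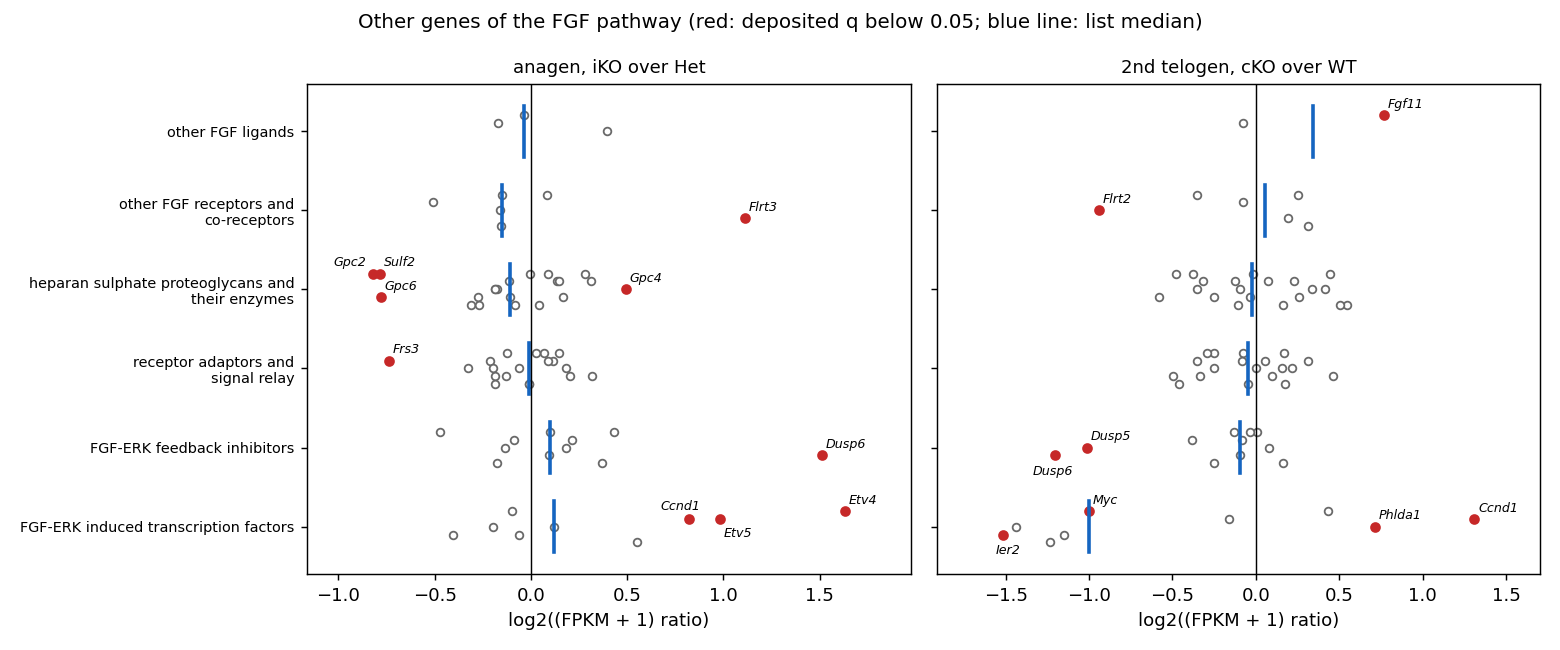
Log2((FPKM + 1) ratio) of knockout over control (x axis) for tested genes of the 6 pathway lists (rows), in anagen (left) and second telogen (right), with called genes in red and list medians as blue lines. Dusp6 is called higher in anagen iKO cells and lower in telogen cKO cells.

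In telogen iKO cells, set against the same WT libraries, 2 of 9 tested induced targets rose and none fell, Etv4 from 4.72 to 9.09 FPKM (log2 fold 0.95, SE 0.31, q = 0.00190 in the authors' deposited table) and Etv5 from 3.92 to 7.50 (0.94, SE 0.31, q = 0.00156). Of 11 feedback inhibitors 3 rose and none fell, Spry1 from 17.2 to 38.5 FPKM (log2 fold 1.16, SE 0.26), Rasa1 from 18.2 to 30.3 (0.73, SE 0.27) and Spry4, which was below 1 FPKM in both groups. The median log2((FPKM + 1) ratio) was 0.49 for the targets and 0.43 for the inhibitors, against -0.02 over all tested genes. Over all genes, 7.01% were called higher and 5.88% lower.

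In the direct comparison of both telogen knockouts, 8 of 11 feedback inhibitors were higher in iKO than in cKO cells and none was lower. Of 9 tested targets 5 were higher and 2 lower, where 7.53% and 7.35% of all tested genes were. Dusp6 was at 31.2 FPKM in cKO and 98.8 in iKO cells (log2 fold 1.66, SE 0.27) and Spry1 at 15.7 and 38.5 (1.30, SE 0.26). The lower targets were Ccnd1 (-1.24) and Phlda1 (-1.04). Driver, strain, age, sex and tamoxifen cannot be told apart here either.

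Dusp6 thus rose in anagen iKO cells and fell in telogen cKO cells. The telogen minus anagen difference was -2.81 (SE 0.40), with an adjusted p of 8.75e-10 over all genes (z test, two-sided, Benjamini-Hochberg). With the inducible knockout at both stages, a choice made after seeing the data, it was -1.14 with an adjusted p of 0.111, which did not pass. In telogen iKO cells Dusp6 was at 98.8 FPKM against 73.0 in WT cells and was not called (q = 0.113 in the authors' deposited table). Etv4 and Etv5, called in anagen iKO but not in telogen cKO cells, had telogen cKO minus anagen iKO differences of -1.30 and -1.33 whose adjusted p of 0.347 and 0.267 did not pass.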

How the data were processed

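mRNA sequencing libraries were made with the TruSeq kit from sorted cells, per the labels' protocols, and were processed with TopHat, Cufflinks and Cuffdiff on build mm9, per the submitters' processing notes, which give no versions. The authors deposited 3 Cuffdiff tables, 2 of which hold 2 groups each and 1 of which holds all 7 groups in 21 comparisons. Expression is given by the authors as FPKM, with 1 value per group, taken here as pooled over its libraries. Values are scaled within each table, so levels are compared within 1 table. The log2 fold is the authors' ratio of both values, per the file headers. The deposited test statistic is a score with the sign of the fold. No p-value deposited is below 5e-05, and the authors adjusted the q-value within each 2-group table and over all comparisons of the joint table. With 2 libraries per group, their p-values rest on few libraries, but not on the spread between those libraries alone. For the same WT and cKO groups the SE of Fgfr2 was 0.35 in the 2-group table and 0.29 in the joint table. Depth per library is unknown.

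Computed here (Python 3.11.15, pandas 2.3.3, SciPy 1.17.1) were the SE (log2 fold over statistic), 95% intervals, the z test of a difference of folds, shares and correlations. The z test was tried on simulated folds drawn as normal with that same SE, so the trial cannot show how it performs on the deposited values. The deposited p was often smaller than the normal p of the statistic, but for some genes, such as Fgf2 in anagen and Fgf5 between iKO stages, it was larger, so an interval from the SE need not match the call. Starts in the files count from 0 and were raised by 1: 8045 of 21811 gene lengths then equalled those of RefSeq, against 508 otherwise. Sequences are from RefSeq (GRCm38.p6), and no coordinate was moved between builds.

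The members, the 6 pathway lists and the 7 marker lists (73 measured genes) were chosen with earlier results of these data known. Named were all members, Foxc1, up to 4 called genes per pathway list by lowest p, the 3 genes most like each member with 5 FPKM or more, and the 2 highest genes of each marker list where a result stands beside them. Cd34, Lgr5, Lhx2, Pdgfra, Wif1, Mir6236, Fgf10, Fos, Egr1 and called markers, and the pathway genes of telogen iKO cells, were named after their values were seen. A further gene of the pathway lists is not reported here, and counts leave it out. Melanocyte markers summed to between 27.7 and 57.0 FPKM over the 7 groups, and bulge markers without Krt15 and Krt5 to between 2753 and 6860. Alternatives varied the q threshold, the table, the adjustment, centring, the filter, the pseudocount and the SE.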

Additional observations from a re-analysis of the deposited data

Results flagged for a closer look

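In 4 cases a knockout effect or a level differed between groups. Driver, strain, age, sex and tamoxifen differed as well in each case, and stage too for Dusp6 and Ier2, and these cannot be told apart. For Dusp6 the telogen cKO minus anagen iKO log2 fold was -2.81, and for Ier2 it was -1.46 (SE 0.39, adjusted p 0.0211, z test with Benjamini-Hochberg adjustment over all genes). With the inducible knockout at both stages, an alternative chosen after seeing the data, Dusp6 had -1.14 (adjusted p 0.111) and Ier2 -0.28 (adjusted p 1.00). With the larger of both available SEs, Ier2 had an adjusted p of 0.116. In the direct comparison of both telogen knockouts, iKO minus cKO was 1.42 for Fgf1 and -1.24 for Fgf18 on the log2 scale, both with q = 0.000444 in the authors' deposited table.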

How the results depend on the processing

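Of the alternatives run on single genes, 204 kept direction and side of the threshold, 11 lost a call, 3 gained one and 1 turned sign: the Fgf1 difference between stages, 0.58 with the inducible knockout at both stages against -0.85. Called members went from 4 to 2 in telogen at q below 0.01 and with a normal p of the statistic, centred or not (Fgfbp1 and Fgfr3 lost), and from 3 to 1 in telogen iKO cells with centred folds. At 3-fold, 2 in place of 5 members passed between first telogen and anagen II.

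Called genes in all, at q below 0.01, were 929 of 1408 in anagen, 574 of 897 in telogen, 1015 of 1769 for telogen iKO against WT and 1148 of 2041 for iKO against cKO. With a normal p, centred, they were 783, 555, 775 and 862 in the same order, and 2249 of 3539 between control stages. Not centred they were 783 in anagen and 556 in telogen, and the joint table called 1677 in telogen. The difference test called 46 with the larger SE, 85 without genes whose p does not follow the statistic and 211 with the inducible knockout at both stages, against 129. The cause of these shifts was not tested, except that a stricter q passes fewer genes by construction.

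Centring moved medians by at most 0.03. Summing rows of a symbol was not run, since each member stood on 1 row. Leaving out a library was not possible with pooled values. No paired analysis was possible because the tables hold 1 pooled value per group. The normal p not centred, the 5-group correlations and the inducible knockout at both stages were chosen after seeing the data.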
